A study of Mus musculus with 12 samples.

Results

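The transcripts described here are those of 8 Jumonji demethylase genes that act on H3K4, H3K36 or H3K27 or on arginine and lysine side chains (Kdm5a, Kdm5b, Kdm5c, Kdm2a, Kdm2b, Kdm6a, Kdm6b and Jmjd6). Kdm1a is set beside them as a histone demethylase of another chemistry. The members were chosen by gene symbol, and all 9 are among the 12516 symbols of the table and passed the filter on low values. Only Kdm5a passed the test in withdrawn against supplied embryos. It was lower, and that call did not hold under every treatment of the embryos.

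RNA was sequenced from germ cells sorted as Oct4-positive from 12 single female Gulo-/- embryos on a C57BL/6 background at embryonic day 13.5. Without Gulo, the enzyme of the final step by which mice make vitamin C, every embryo of both groups depended on what the mother ate. There were 6 embryos in the withdrawn group, whose mothers were taken off vitamin C during gestation, and 6 in the supplied group, whose mothers received it at physiological levels. The values used are log2 expression as normalized by the authors. Library depth is unknown, and fold changes are withdrawn minus supplied.

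Jumonji demethylases hold iron in their active site and use oxygen and alpha-ketoglutarate to oxidize the methyl group that they remove. Vitamin C helps to keep such iron in its reduced, active state, so its supply is known to bear on the activity of these enzymes, which was not measured here. Kdm1a works through a flavin cofactor and does not need vitamin C. In the embryonic germline, histone marks are remodelled while DNA methylation is erased, and female germ cells at this age pass from proliferation to meiosis.

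Because the study concerns a cofactor of DNA demethylation, the CpG content of the members' promoters is given as context. RefSeq promoter windows of build GRCm38.p6 were at hand for 6 of the 9 members, and cover the 250 bases before each annotated start. Windows for Kdm5a, Kdm2a and Kdm6b were not used here. The median window of 32851 over all genes held 6 CpG dinucleotides, and the 9 windows of these 6 members held from 10 to 38. The lowest and the highest of them are printed here, 5′ to 3′ on the gene's strand, with each CpG in capitals.
Kdm5c, chrX:152232977-152233226, plus strand: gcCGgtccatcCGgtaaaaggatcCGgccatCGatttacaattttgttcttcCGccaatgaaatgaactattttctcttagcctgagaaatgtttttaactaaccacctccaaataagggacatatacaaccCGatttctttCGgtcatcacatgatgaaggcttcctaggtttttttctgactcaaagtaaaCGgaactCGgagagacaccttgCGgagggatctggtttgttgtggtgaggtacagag
Kdm2b, chr5:122900351-122900600, minus strand: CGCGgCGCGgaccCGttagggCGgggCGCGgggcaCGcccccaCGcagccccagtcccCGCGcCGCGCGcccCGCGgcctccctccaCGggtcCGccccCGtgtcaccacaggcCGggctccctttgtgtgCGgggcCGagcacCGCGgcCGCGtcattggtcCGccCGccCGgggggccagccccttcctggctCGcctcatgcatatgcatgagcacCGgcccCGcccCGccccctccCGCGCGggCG
The Kdm5c window had 10 CpGs, a number that 37.8% of all windows reached or passed. The Kdm2b window belongs to an internal start of that gene and had 38 CpGs, which 1.88% of all windows reached. Kdm2b also has windows with 12, 27 and 36 CpGs. The window with 36, chr5:122900368-122900617, overlaps most of the printed one, so the 9 windows are not all separate promoters. Kdm5b had 13, Kdm6a 15, Kdm1a 21 and Jmjd6 28. These counts describe sequence alone, and no methylation was measured in the table used here.

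Correlations between libraries across genes lay between 0.986 and 0.999. On the first principal component, which held 45.5% of the variance, supplied replicate 4 lay at 1.54, inside the withdrawn range of 1.27 to 23.2, and apart from the other supplied embryos. Each sample title begins with a number between 1 and 4, found in withdrawn and supplied embryos alike. Numbers 1 and 4 have 2 embryos per group, and the labels do not say whether these are littermates or what the number stands for. Defining germ cell markers were high, with 11 of 12 above the median gene, among them Pou5f1, Ddx4 and Dazl. Of 29 genes listed as markers of other gonadal cells, 2 lay above the median gene, Fbln1 and Pecam1, and none of the 14 supporting cell markers did. These ran from Foxl2, at 3.68 in withdrawn and 3.74 in supplied embryos, to Irx3, at 7.35 in withdrawn and 7.47 in supplied embryos, where the lowest value of the table was 2.82.

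Per kilobase of the longest annotated coding transcript, Kdm1a had the highest level of the 9 genes and Kdm6b by far the lowest. On this scale of log2 expression per kilobase, Kdm1a averaged 9.98 ± 0.10 in withdrawn and 9.82 ± 0.06 in supplied embryos (SD, n = 6 each). Kdm6b averaged 4.12 ± 0.14 in withdrawn and 4.32 ± 0.25 in supplied embryos. Among 10847 genes with a length, that placed Kdm1a at percentile 93.8 and Kdm6b at percentile 18.5. The order from high to low was Kdm1a, Jmjd6, Kdm2b, Kdm5c, Kdm5a, Kdm5b, Kdm2a, Kdm6a and Kdm6b.

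Some neighbours in that order did not differ beyond their spread. Jmjd6 exceeded Kdm2b in 8 of 12 embryos, and Kdm5c exceeded Kdm5a in 8 of 12. Kdm5a exceeded Kdm5b in 11 of 12 embryos, by a mean of 0.22 ± 0.17 per kilobase on the log2 scale. Each other neighbour stood in the same order in all 12 embryos. The widest gap was between the X-linked Kdm6a and its autosomal paralogue Kdm6b, at 2.99 ± 0.24, or at least 2.40 in every embryo.

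**Figure D1:**
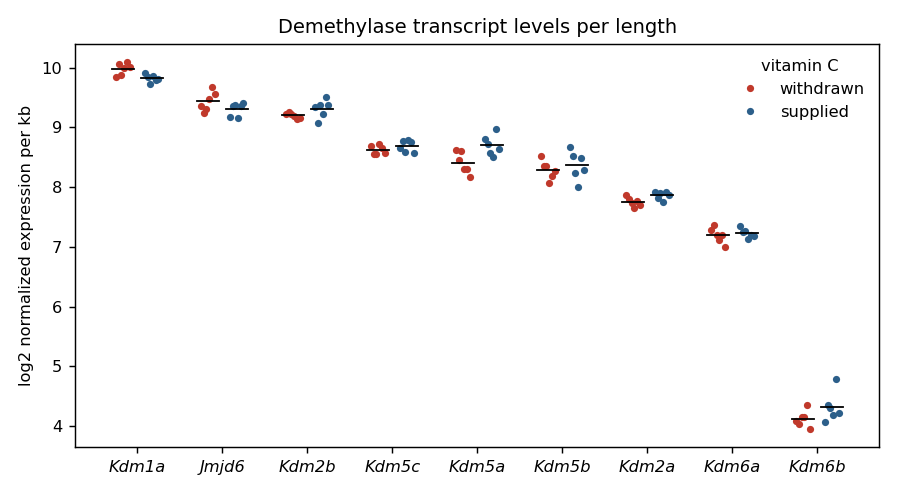
Log2 normalized expression per kilobase of transcript (y axis) of the 9 genes (x axis, ordered by level), with 1 point per embryo, withdrawn in red and supplied in blue, and a line at each group mean. The group means of Kdm6b lie near 4 and those of every other gene above 7, in withdrawn and supplied embryos alike.

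The Kdm5 enzymes remove methyl groups from H3K4, a mark of active promoters. Kdm5a, the member first known as a partner of the retinoblastoma protein, had values from 11.62 to 12.08 with a median of 11.83 in withdrawn embryos. In supplied embryos it ranged from 11.95 to 12.42 with a median of 12.13. All 6 withdrawn embryos lay below the supplied mean, but the groups overlapped: withdrawn embryos at 12.06 and 12.08 stood above the lowest supplied embryo. The mean was 11.86 ± 0.18 in withdrawn and 12.15 ± 0.17 in supplied embryos (SD, n = 6 each). The log2 fold change was -0.29 (SE 0.09, 95% interval -0.47 to -0.12, limma adjusted p = 0.0264), so the withdrawn level was 81.6% of the supplied one. Kdm5a was 1 of 9 members called, or 11.1%, where 14.0% of all 12432 genes tested were called, 7.75% lower and 6.22% higher. A call among these 9 genes was thus no more frequent than in the table as a whole.

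The decrease of Kdm5a was unevenly spread over the embryos. Between embryos of title number 4 it was -0.57, and it was -0.23 for number 1, -0.20 for number 3 and 0.04 for number 2. Without the 4 embryos of number 4 it was -0.15 (adjusted p = 0.387), and without number 1 it was -0.33 (adjusted p = 0.0717). With a random effect for embryos that share a number and a diet it was -0.28 (adjusted p = 0.0676). The call was also lost without supplied replicate 5 (-0.24, adjusted p = 0.0787), withdrawn replicate 4 (-0.27, adjusted p = 0.0606), withdrawn replicate 5 (-0.27, adjusted p = 0.0524) or withdrawn replicate 6 (-0.25, adjusted p = 0.0732). Supplied replicate 5 and withdrawn replicate 5, both of title number 4, lay at opposite ends of the first principal component. Without supplied replicate 4, which lay inside the withdrawn range there, the fold change was -0.33 (adjusted p = 0.0105). Over 25 alternatives the adjusted p ranged from 0.0105 to 0.387, the value stayed negative in all 25, and 15 kept the call. An exact two-sided permutation test over the 924 arrangements of the embryos gave p = 0.0216, and 0.115 after adjustment over all genes. Only a gene without overlap can reach the smallest p of that test. It called 558 genes after adjustment, as many as had groups without overlap. The loss of the call there thus repeats the overlap of Kdm5a given above.

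Most markers of other cells had negative values that did not pass the test. Of the 29 kept, 27 were negative, where 53.4% of all genes were. Of the 29, 3 were called lower and 0 higher, beside 7.75% and 6.22% of all genes. Their summed level ranged from 11.95 to 12.14 in withdrawn and from 11.94 to 12.10 in supplied embryos on the log2 scale. That sum rests largely on Pecam1, at 11.38 in withdrawn and 11.18 in supplied embryos, which was not among the negative markers. The other endothelial markers kept lay far lower, the highest being Tek at 5.28 in withdrawn and 5.27 in supplied embryos. Which cells the Pecam1 transcript came from was not tested, so the sum need not follow other cells. The mean of the 29, with equal weight per gene, ranged from 5.29 to 5.38 in withdrawn and from 5.32 to 5.52 in supplied embryos. With this mean as a covariate Kdm5a stood at -0.31 (adjusted p = 0.262), a fit that called 1 gene in the whole table. Of 12 germ cell markers 7 were called higher and 3 lower, and their part in the values of Kdm5a was not tested. In sorted bulk samples, fewer cells of a type and less RNA per cell cannot be told apart.

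**Figure D2:**
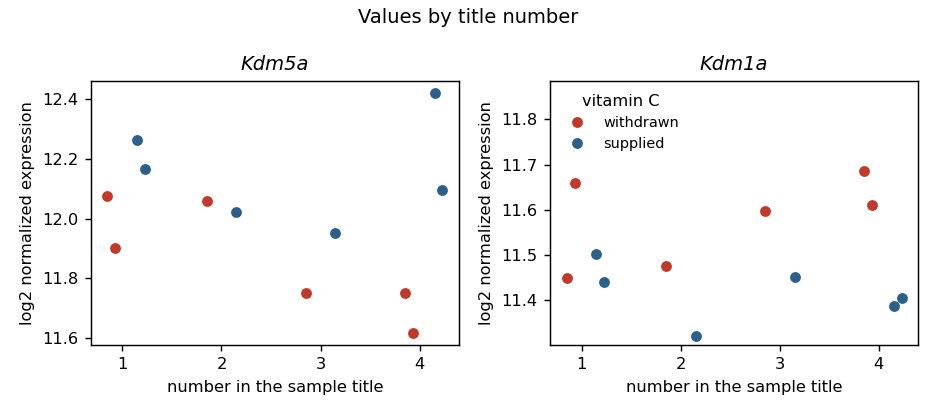
Log2 normalized expression (y axis) of Kdm5a and Kdm1a by the number in the sample title (x axis), with 1 point per embryo, withdrawn in red and supplied in blue. For Kdm5a the diets lie farthest apart at number 4 (-0.57), and for Kdm1a the withdrawn mean lies above the supplied mean at each number.

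Kdm5b and Kdm5c did not pass the test. Kdm5b, a repressor that works at the same mark, ranged from 11.20 to 11.64 (median 11.43) in withdrawn and from 11.12 to 11.80 (median 11.52) in supplied embryos. The withdrawn values fell wholly within the supplied range, with a log2 fold change of -0.08 (95% interval -0.27 to 0.12, adjusted p = 0.609). With 1 embryo left out it lay between -0.15 (without supplied replicate 4) and -0.02 (without supplied replicate 1). Kdm5c, which is X-linked and escapes X inactivation in mouse, ranged from 11.24 to 11.42 (median 11.29) in withdrawn and from 11.26 to 11.48 (median 11.39) in supplied embryos. The groups overlapped over most of their range, with a log2 fold change of -0.06 (95% interval -0.19 to 0.07, adjusted p = 0.532).

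The difference between paralogues within an embryo was compared for 5 pairs. A scaling factor shared by the whole library cancels in it, but a transformation that acts by level does not. Kdm5a exceeded Kdm5b by 0.45 ± 0.13 in withdrawn and by 0.66 ± 0.15 in supplied embryos (log2 scale, SD, n = 6 each). That contrast moved by -0.21 (exact 95% interval -0.40 to -0.035, exact two-sided permutation p = 0.0281), and its p was 0.141 after adjustment over the 5 pairs. Against Kdm5c, Kdm5a moved by -0.23 (interval -0.48 to 0.015, exact permutation p = 0.0606, adjusted 0.152). So a larger decrease of Kdm5a than of its paralogues was not established over the 5 pairs. The Kdm5b-Kdm5c contrast moved by -0.02 (interval -0.30 to 0.28, exact permutation p = 0.903).

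Co-variation between embryos of the same diet was computed for the 36 pairs of members, and none passed after adjustment. The pair with the smallest Pearson p was Kdm5a and Kdm5b. After subtraction of each diet's mean, Pearson's r was 0.746 (permutation p = 0.00723) and Spearman's rho 0.748 (permutation p = 0.00974) over 12 embryos. Adjusted over the 36 pairs these p values were 0.225 and 0.206. Without the 2 embryos farthest from the Kdm5a median, r was 0.708. Both genes had embryo-to-embryo spread in the upper part of all genes, with residual SDs of 0.18 for Kdm5a (percentile 89.5) and 0.20 for Kdm5b (percentile 94.9).

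The genes most like Kdm5a in their values over the 12 embryos were Lancl2 (r = 0.964, rho = 0.951), Dennd4a (r = 0.963, rho = 0.944) and Mamld1 (r = 0.961, rho = 0.986). With the diet means taken off they were Lancl2 (r = 0.947), Dennd4a (r = 0.937) and Sdha (r = 0.929). Such values are the highest of 12432 genes over few embryos and are given as a description. Of the other members, Kdm2a was the nearest to Kdm5a over the 12 embryos (r = 0.784, rho = 0.776) and Kdm1a the farthest (r = -0.695, rho = -0.685). Those values include the shift between diets. With the diet means taken off, Kdm5b was the nearest (r = 0.746) and Kdm2a stood at 0.628. Kdm1a was still the farthest, at a weaker r of -0.401 (rho = -0.399).

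Kdm2a and Kdm2b remove methyl groups from H3K36 and bind unmethylated CpGs through a zinc finger. Kdm2b also brings a Polycomb complex, PRC1.1, to CpG islands. Kdm2a ranged from 10.74 to 10.97 (median 10.85) in withdrawn and from 10.85 to 11.01 (median 10.98) in supplied embryos. Its log2 fold change was -0.11 (SE 0.06, 95% interval -0.23 to 0.02, adjusted p = 0.247), with 5 of 6 withdrawn embryos below the supplied mean.

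Kdm2b ranged from 11.52 to 11.62 (median 11.58) in withdrawn and from 11.44 to 11.88 (median 11.73) in supplied embryos. All 6 withdrawn embryos lay below the supplied mean, yet the lowest value of all was a supplied embryo of title number 1. The log2 fold change was -0.11 (SE 0.07, 95% interval -0.25 to 0.03, adjusted p = 0.268). It was -0.08 without supplied replicate 5 and -0.03 without the 4 embryos of title number 4. The SD of Kdm2b was 0.04 in withdrawn and 0.15 in supplied embryos. The difference between the SDs was not tested. The contrast of Kdm2a with Kdm2b averaged -0.72 ± 0.07 in withdrawn and -0.73 ± 0.11 in supplied embryos, a movement of 0.01 (exact interval -0.105 to 0.115, exact permutation p = 0.887).

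Kdm6a and Kdm6b remove methyl groups from H3K27, the mark set by PRC2. Kdm6a, which also serves in H3K4 methyltransferase complexes, is X-linked and escapes X inactivation. It ranged from 9.56 to 9.93 (median 9.77) in withdrawn and from 9.70 to 9.91 (median 9.79) in supplied embryos, so the supplied values lay inside the withdrawn range. Its log2 fold change was -0.04 (95% interval -0.18 to 0.10, adjusted p = 0.742), and with 1 embryo left out it lay between -0.07 (without withdrawn replicate 2) and 0.0005 (without withdrawn replicate 6).

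Kdm6b, which is induced by signals in many cell types, ranged from 6.69 to 7.09 (median 6.85) in withdrawn and from 6.80 to 7.53 (median 6.997) in supplied embryos. The log2 fold change was -0.20 (95% interval -0.40 to -0.003, adjusted p = 0.160). One supplied embryo of title number 4 stood at 7.53, and without it (supplied replicate 5) the fold change was -0.10 (adjusted p = 0.415). None of 25 alternatives called Kdm6b, and its adjusted p lay between 0.0855 and 0.886 over them. Kdm6b lay below the median gene of the table, and if the deposited scale shrinks poorly covered genes its changes are understated. The contrast of Kdm6a with Kdm6b was 2.90 ± 0.17 in withdrawn and 2.74 ± 0.28 in supplied embryos (movement 0.16, exact interval -0.115 to 0.46, exact permutation p = 0.281), and the movement was 0.06 without supplied replicate 5.

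Jmjd6 is best known as a hydroxylase of lysines in splicing factors, with a debated role as an arginine demethylase. It was the only Jumonji member with a positive value. It ranged from 9.97 to 10.42 (median 10.15) in withdrawn and from 9.89 to 10.15 (median 10.10) in supplied embryos. The 3 withdrawn embryos of title numbers 3 and 4 lay above every supplied embryo, and the other 3 did not. The log2 fold change was 0.13 (95% interval -0.03 to 0.29, adjusted p = 0.284), and 0.08 without withdrawn replicate 5.

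Kdm1a, the flavin enzyme that removes methyl groups from H3K4, ranged from 11.45 to 11.69 (median 11.60) in withdrawn and from 11.32 to 11.50 (median 11.42) in supplied embryos. All 6 withdrawn embryos lay above the supplied mean, and withdrawn embryos at 11.45 and 11.48 overlapped the supplied range. The log2 fold change was 0.16 (SE 0.06, 95% interval 0.03 to 0.29, adjusted p = 0.0792), which did not pass the threshold. The difference within title numbers was 0.08 for number 1, 0.16 for number 2, 0.15 for number 3 and 0.25 for number 4. In 25 alternatives Kdm1a was never called, with adjusted p values from 0.0541 to 0.524, and it stayed positive between 0.12 and 0.20. An exact two-sided permutation test gave p = 0.0130, and 0.0906 after adjustment over all genes.

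**Figure D3:**
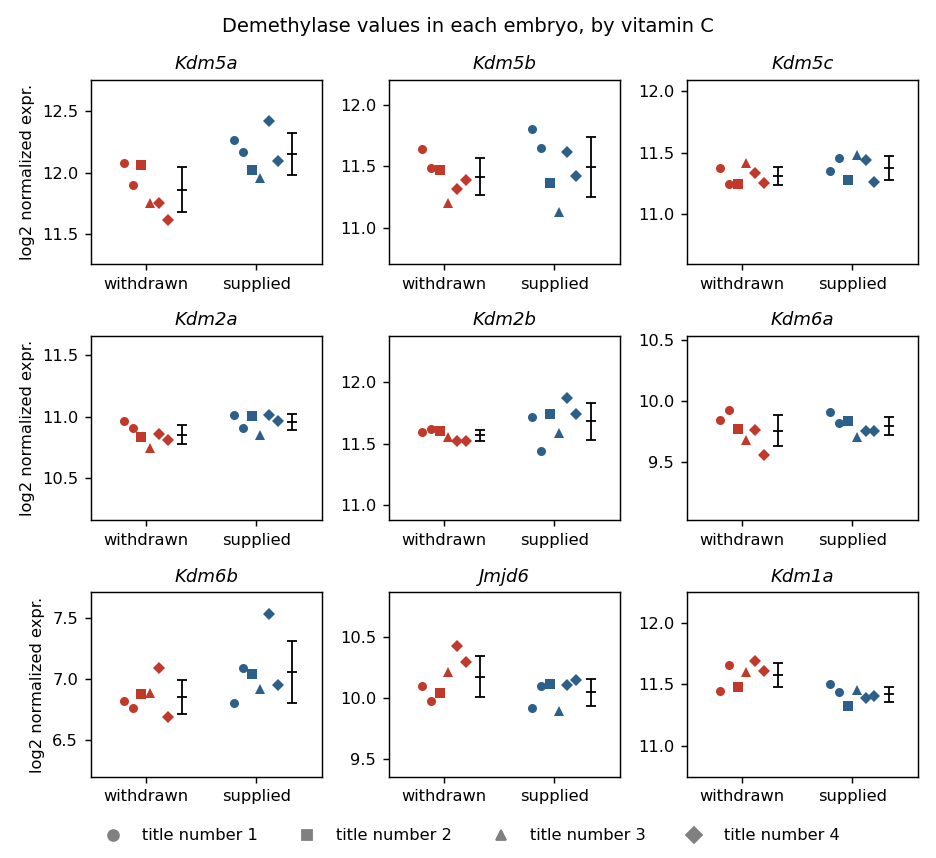
Log2 normalized expression (y axis, the same height of 1.5 log2 units in each panel) of the 9 genes in each withdrawn (red) and supplied (blue) embryo, with marker shapes for the number in the sample title and mean ± SD beside each group. The groups overlap in every panel, with the clearest offsets for Kdm5a (lower in withdrawn) and Kdm1a (higher in withdrawn).

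Over the 9 members, 7 values were negative and 2 positive, and 53.4% of all genes were negative. The median log2 fold change was -0.08 for the members and -0.01 for all genes. At an unadjusted p below 0.05 there were 3 members, Kdm5a, Kdm1a and Kdm6b, where 30.2% of all genes lay below it. No member had groups that did not overlap, which 4.49% of all genes had. Of the 95% intervals, the lowest bound was -0.47, for Kdm5a, and the highest 0.29, for Jmjd6 and Kdm1a. These intervals hold gene by gene, on the deposited scale and with embryos taken as independent. They are too narrow if embryos sharing a number and diet are littermates.

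**Figure D4:**
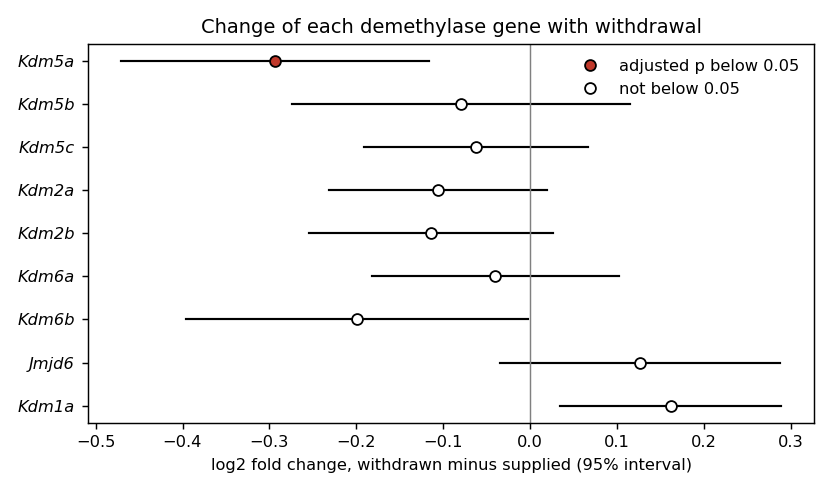
Log2 fold change, withdrawn minus supplied (x axis), with 95% limma interval for each of the 9 genes, filled where the adjusted p was below 0.05. Only Kdm5a (-0.29) is filled, and of the others only the intervals of Kdm6b and Kdm1a leave out 0.

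Genes listed as partners, opponents or relatives of these enzymes were counted in 9 lists of 113 genes other than the members. A place in a list does not show that a gene acts on the same mark in these cells. Of the 113, 26 were called in either direction against 14.0% of all genes, where 7.75% were lower and 6.22% higher. The lists were not matched to all genes in level. The limma fit that left out all 4 embryos of title number 4 called none of the 26. Of the 26, 14 were called with a random effect for embryos that share a number and a diet, 3 with such embryos averaged, 8 by the exact test, 0 with the somatic marker covariate, 12 without title number 1 and 14 without supplied replicate 5. The sign was kept by all 26 in each of these. Some genes stand in more than 1 list.

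Of 21 genes listed as H3K4 methyltransferases or subunits of their complexes, 2 were higher and 4 lower, beside 6.22% and 7.75% of all genes. The median was -0.05. With the random effect for shared numbers 1 was called in place of 6. Dpy30, a core subunit, averaged 9.88 ± 0.16 in withdrawn and 9.51 ± 0.12 in supplied embryos with no overlap (log2 fold change 0.37, SE 0.08, adjusted p = 0.00583), and the core subunit Ash2l was at 0.25 (adjusted p = 0.0224). The meiotic methyltransferase Prdm9 was at -0.21 (adjusted p = 0.0178), from low values of 4.97 in withdrawn and 5.19 in supplied embryos. Ncoa6, a subunit of the complexes that Kdm6a joins, was at -0.29, Mll5 at -0.21 and Setd7 at -0.22. The large catalytic subunits did not pass, with Mll1 at -0.21, Mll3 at -0.27, Wbp7 at -0.20, Mll2 at -0.10 and Setd1a at -0.04. Leaving out supplied replicate 5 lowered the count of 6 to 2, and leaving out supplied replicate 3, withdrawn replicate 4 or withdrawn replicate 5 lowered it to 3.

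Among 12 PRC2 genes, which set the mark that Kdm6a and Kdm6b remove, 3 were higher and 0 lower. Over all genes 6.22% were higher and 7.75% lower. With the random effect 1 was called, and with embryos averaged 0. The 3 were Mtf2 (0.28, adjusted p = 0.0104), Eed (0.31, adjusted p = 0.0196) and Jarid2 (0.23, adjusted p = 0.0322), a Jumonji protein without demethylase activity. The methyltransferase Ezh2 was at 0.03 (adjusted p = 0.779) and Suz12 at 0.07. Only 1 of these calls was made when supplied replicate 5 was left out.

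Of 9 genes listed as H3K36 methyltransferases, Ash1l (-0.37, adjusted p = 0.00630) and Nsd1 (-0.26, adjusted p = 0.0218) were lower and 0 were higher. Of all genes 7.75% were lower and 6.22% higher. With the random effect 1 was called in place of 2. Ash1l did not overlap between the groups, with 11.51 ± 0.13 in withdrawn and 11.87 ± 0.18 in supplied embryos. Without supplied replicate 5 or withdrawn replicate 6 the count of 2 was 1. Setd2, the enzyme of H3K36 trimethylation, was at -0.10 (adjusted p = 0.412).

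Of 9 PRC1.1 partners of Kdm2b, Bcorl1 was lower (-0.52, adjusted p = 0.0106) and Skp1a higher (0.22, adjusted p = 0.0248), beside 7.75% and 6.22% of all genes. Bcor was at 0.03 and Pcgf1, which defines this complex, had a low value of 4.37 in both groups. The random effect left the count at 2, and averaging gave 0. Leaving out supplied replicate 2 or 3 or withdrawn replicate 5 or 6 gave 1 call, and leaving out supplied replicate 4 gave 3.

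Of 16 partners of Kdm1a, the deacetylase gene Hdac1 (0.29, adjusted p = 0.00657) and Mta2 (0.33, adjusted p = 0.0147) were higher, and Gse1 (-0.37, adjusted p = 0.0114) and Zmym3 (-0.23, adjusted p = 0.0346) were lower. Over all genes 6.22% were called higher and 7.75% lower. With the random effect 3 of these partners were called, and with embryos averaged 0. The CoREST scaffold genes Rcor1 (-0.04) and Rcor2 (0.004) did not pass. Of 15 partners of the Kdm5 enzymes limma called 0, beside 14.0% of all genes. There were 4 with an unadjusted p below 0.05, the exact test called 0, and limma called 3 without supplied replicate 4 and 1 without withdrawn replicate 3. Their scaffold Sin3a was at 0.07.

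The list of other Jumonji genes included Jarid2, named above among the PRC2 genes. Of its 20 genes, 3 were called higher, Jarid2 among them, and 2 lower, beside 6.22% and 7.75% of all genes. With the random effect 3 were called in place of 5, and with embryos averaged 0. Kdm3a, an H3K9 demethylase, was at 0.25 (adjusted p = 0.0133), Hr at 0.31, Phf8 at -0.42 (adjusted p = 0.0160) and Phf2 at -0.27. Leaving out supplied replicate 5 or 6 gave 3 calls in place of 5. Kdm1b, the other flavin-dependent histone demethylase and one known for its role in growing oocytes, was lower in withdrawn embryos. It averaged 9.47 ± 0.25 in withdrawn and 9.92 ± 0.30 in supplied embryos (log2 fold change -0.45, SE 0.12, adjusted p = 0.0169), opposite in sign to Kdm1a. The difference between these genes was not tested, and the Kdm1b call was lost in 6 of 25 alternatives, one of them without supplied replicate 5, with adjusted p values from 0.000829 to 0.374.

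Kdm5c and Kdm6a belong to the X-linked genes that escape inactivation in mouse, here a list of 10 that includes both. In it 3 were higher and 1 lower, beside 6.22% and 7.75% of all genes. Whether an X was inactive in these cells was not tested. The translation factor gene Eif2s3x (0.34, adjusted p = 0.00829), the helicase gene Ddx3x (0.23, adjusted p = 0.0453) and 2610029G23Rik (0.19, adjusted p = 0.0496) were higher, and Shroom4 (-0.43, adjusted p = 0.0121) was lower. The values of Kdm5c (-0.06) and Kdm6a (-0.04) lay between them. Xist, at -0.40 (adjusted p = 0.132), did not pass, and its supplied values ran from 7.55 to 9.05. Leaving out supplied replicate 3, 5 or 6 or withdrawn replicate 1, 2, 3 or 6 gave 2 calls in place of 4, as did the random effect, and the call of 2610029G23Rik was lost in 19 of 25 alternatives.

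**Figure D5:**
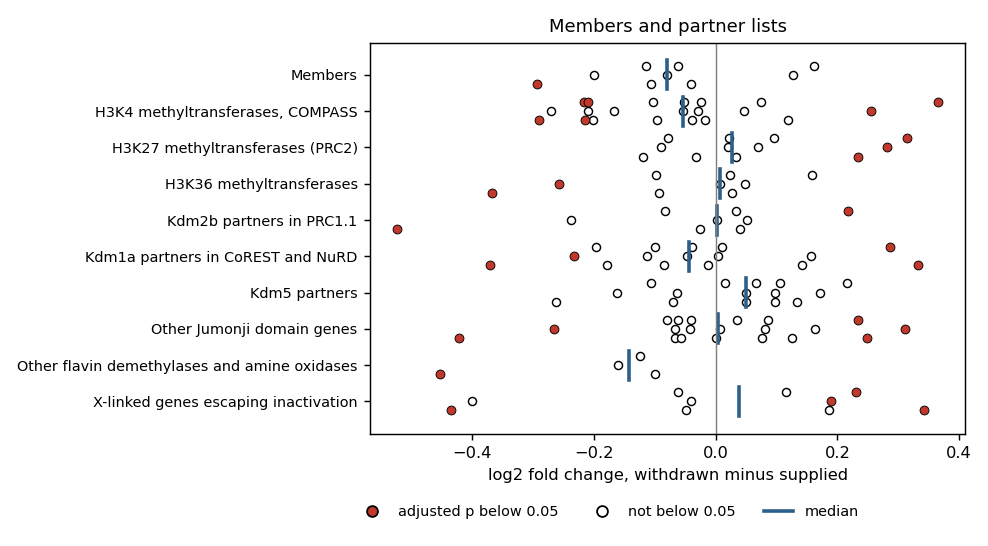
Log2 fold change, withdrawn minus supplied (x axis), of the 9 members and of the genes of each partner list (rows), with 1 point per gene, filled where the adjusted p was below 0.05, and a bar at each median. The medians of the lists lie between -0.14 and 0.05, and the members' median is -0.08.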

How the data were processed

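The table deposited by the authors holds normalized log2 values for 12516 gene symbols in 12 columns, 1 per embryo. The submitters' processing notes name DESeq2 1.10.1, TopHat2 2.0.13, FastQC and Trim Galore 0.4.0, and build mm9. How reads were counted, with which annotation and gene filter, and by which transformation is not given in the sources used here. Depth is therefore unknown and no counting interval is given.

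Genes with a mean of at least 3.32, the log2 of 10, were kept (12432, with 84 dropped). Withdrawn and supplied embryos were compared with limma 3.58.1 in R 4.3.3, with a variance trend, two-sided, and Benjamini-Hochberg adjustment over all genes kept, with calls at an adjusted p below 0.05. Adjusted p values of genes are from this fit unless another test is named. It was tested on simulated data for this comparison (12432 genes, 200 of them altered). Recovery was 100% at a log2 change of 1 and 93% at 0.5, and false calls made up 2.53%. The simulated noise was independent between embryos and between genes, so these rates were not measured for embryos that share variation. Changes below 0.5, where all members lay, were not simulated. Paralogue contrasts were tested over all 924 arrangements of the embryos (smallest p 0.00216) and co-variation with 100000 permutations within diets.

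Embryos were grouped by the treatment label and taken as independent. If embryos sharing a number and diet are littermates, these p values are too small. Transcript lengths are from GENCODE M21 (GRCm38), not mm9. Retired symbols were matched through RefSeq synonyms. Mll2 is listed for both Kmt2b and Kmt2d and was taken as Kmt2d, with Wbp7 as Kmt2b. One gene entered by mistake in the list of Kdm5 partners was removed after its values had been seen. The members and lists were chosen with earlier results of these data known. All members were named, with the called genes of each partner list, other list genes as examples chosen after their values were seen, and the 3 genes most like each called member. Alternatives changed the filter, scaling, variance model, weights, test, handling of embryos sharing a number, title-number block, somatic covariate and the embryos included.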

Additional observations from a re-analysis of the deposited data

How the results depend on the processing

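The number of genes called, 1737, was 886 with a random effect for embryos that share a number and a diet (statmod 1.5.0), 298 with such embryos averaged, 558 by the exact permutation test per gene, 1 with the somatic marker covariate, 729 without title number 1 and 49 without title number 4, and ranged from 808 to 2315 when 1 embryo was left out. The 1 called member, Kdm5a, was not called in any of these 6 settings, which gave 0 members, and leaving out 1 embryo gave 0 to 1. The exact test called as many genes as had groups without overlap. For the members, all of which overlapped, its adjusted result is therefore not a separate criterion. Kdm5a had adjusted p values of 0.146 with averaged embryos and 0.115 by the exact test, within the range of 0.0105 to 0.387 over 25 alternatives. Members other than Kdm5a were called in none of the 25, and kept their sign in all but 1, Kdm6a at 0.00050 without withdrawn replicate 6 (-0.074 to 0.00050 with 1 embryo left out).

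Whether title numbers pair the embryos could not be decided. Deviations from the diet means correlated between diets at 0.27, -0.10, 0.18 and -0.17 for numbers 1 to 4. Embryos sharing a number and a diet gave values of like size, 0.21 in both diets for number 1. For number 4 they correlated at -0.16 in withdrawn and 0.28 in supplied embryos. With a replicate block on the number, 2062 genes were called and Kdm5a had an adjusted p of 0.0202.

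Contrasts between paralogues passed in none of 17 alternatives after adjustment. The Kdm2a-Kdm2b contrast was -0.0073 with averaged embryos, -0.054 without number 4 and -0.020 to 0.048 with 1 embryo left out. The Kdm5b-Kdm5c contrast was 0.022 with averaged embryos, 0.011 without number 1, 0.032 without number 4 and -0.11 to 0.050 with 1 embryo left out. The Kdm6a-Kdm6b contrast ranged from 0.057 to 0.23, Kdm5a-Kdm5b from -0.25 to -0.17 and Kdm5a-Kdm5c from -0.29 to -0.19 with 1 embryo left out, and without number 4 Kdm5a-Kdm5b was -0.12 and Kdm5a-Kdm5c -0.086. A random effect could not be used in these permutation tests and was not run. The causes of these shifts were not tested, and depth, being unknown, sets a limit that cannot be stated.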
